A study of Mus musculus with 6 samples.

Results

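Transcripts of 8 genes of parvalbumin interneurons and of the GABA pathway were followed in the visual cortex of mice that carry a mutated untranslated region in Mmp9 (the labels do not say which one). The genes were Pvalb, Gad1, Gad2, Slc32a1, Kcnc1, Kcnc2, Syt2 and Lhx6, found by matching the Ensembl identifiers of the deposited count table to GENCODE symbols. All 8 were present among the 55487 genes of the table, and all 8 passed the filter on low counts, as did 16119 genes in all. The 6 libraries were made from total RNA of visual cortex at postnatal day 28, on the B6.CBA/Tar background. They comprised homozygous mutants (UTRmut, genotype UTRmut/UTRmut), heterozygotes (het, genotype UTRmut/WT) and wild types (WT, genotype WT/WT). Each genotype had 2 libraries, replicate 1 from a female and replicate 2 from a male. Whether a library pooled animals, or libraries shared a litter, is not stated in the labels. The p-values therefore reflect the spread among these 6 libraries, which may be partly technical. Within a genotype, that spread is the difference between its female and its male library.

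Parvalbumin interneurons are fast-spiking inhibitory neurons that contact the cell bodies and proximal dendrites of cortical pyramidal cells, and many of them are wrapped in a perineuronal net, a condensed extracellular matrix. Their maturation accompanies the critical period in which visual experience shapes the cortex. MMP-9, the Mmp9 product, is a protease that neurons and other cells release and that cleaves matrix proteins. Parvalbumin itself (Pvalb) is a cytosolic calcium buffer. Gad1 and Gad2 encode the glutamate decarboxylases that make GABA, and Slc32a1 encodes the transporter that loads GABA into synaptic vesicles. All GABA neurons use these 3 genes, not parvalbumin cells alone. Kcnc1 and Kcnc2 encode voltage-gated potassium channels that allow fast repolarisation. Syt2 encodes synaptotagmin 2, a calcium sensor of fast transmitter release, and Lhx6 a transcription factor of interneurons that arise in the medial ganglionic eminence.

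In GRCm38 coordinates, GENCODE places Pvalb (ENSMUSG00000005716) on chromosome 15 from 78191114 to 78206400, Gad1 (ENSMUSG00000070880) on chromosome 2 from 70553072 to 70602014, Gad2 (ENSMUSG00000026787) on chromosome 2 from 22622205 to 22693874 and Slc32a1 (ENSMUSG00000037771) on chromosome 2 from 158610767 to 158615748. It places Kcnc1 (ENSMUSG00000058975) on chromosome 7 from 46396497 to 46438704, Kcnc2 (ENSMUSG00000035681) on chromosome 10 from 112271121 to 112467024, Syt2 (ENSMUSG00000026452) on chromosome 1 from 134646677 to 134762593 and Lhx6 (ENSMUSG00000026890) on chromosome 2 from 36081953 to 36105408. All 8 are annotated as protein-coding.

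Total counts per library were 9500090 to 11966579, and levels below are CPM (library-size-scaled counts) after trimmed-mean (TMM) scaling in edgeR. The tissue label was checked against markers. Slc17a7, the vesicular glutamate transporter of cortical excitatory neurons, had 947 ± 0.938 CPM in UTRmut, 879 ± 8.30 in het and 940 ± 88.9 in WT (SD, n = 2 each). Of 7 markers of skeletal muscle, which also makes parvalbumin in mice, Ckm was at 0 counts in all 6 libraries and Tnnt3 and Atp2a1 in some. The other muscle markers had counts in each library, Acta1 the most (47 to 86), and the 7 summed to 8.37 to 12.2 CPM. Of 8 markers of thalamus and its reticular nucleus, Gbx2, Six3 and Isl1 were at 0 in all 6 libraries. The other 5 had counts in each, and the list summed to 55.5 to 62.1 CPM. Most of this sum came from Slc17a6 (33.8 ± 2.08 CPM) and Calb2 (13.8 ± 1.47; SD, n = 6 libraries). These genes are also listed below among excitatory neuron and other interneuron genes, so the sum is not a measure of thalamic tissue alone. Prkcd, Tcf7l2 and Lef1 had means of 7.17, 3.13 and 1.80 CPM. The share of counts in unconfirmed gene models (TEC class) was highest in the WT female, 0.751%, and next in the het female, 0.680%. It was 0.452% to 0.523% in the others. The UTRmut male stood apart in its share of mitochondrial ribosomal RNA, 8.69% against 4.95% to 6.31%. Parts played by these shares in the results were not tested.

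Compared per length, the 8 genes spanned more than an order of magnitude, and their order was the same in the 3 genotypes. In CPM per kilobase of annotated exon, Gad1 was highest at 42.1 ± 2.99 (SD, n = 6 libraries), followed by Pvalb at 34.0 ± 2.12, Gad2 at 25.5 (range 22.5 to 29.0) and Kcnc2 at 23.3 ± 1.26. Slc32a1 had 12.2 ± 0.911, Kcnc1 10.01 ± 1.30, Syt2 5.03 ± 0.798 and Lhx6 3.27 ± 0.306. Ranges over the 6 libraries overlapped between Gad2 and Kcnc2, between Slc32a1 and Kcnc1, and between Syt2 and Lhx6. Within each library, however, Syt2 lay above Lhx6. Gad2 lay above Kcnc2, and Slc32a1 above Kcnc1, in every library but the WT female, and these pairs could not be ordered beyond their spread. Ranges of the other neighbours did not overlap. With the longest annotated transcript as the length, Gad1 stood at 89.2, Gad2 and Kcnc2 changed places (26.1 and 32.9), and so did Slc32a1 and Kcnc1 (12.19 and 12.20).

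**Figure D1:**
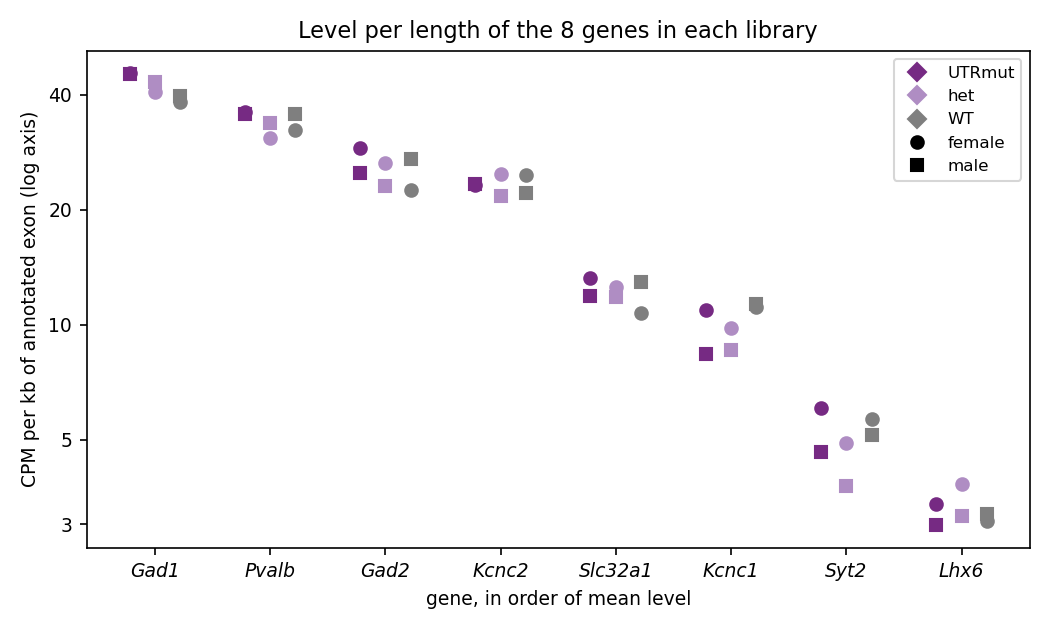
Level per length (CPM per kb of annotated exon, log axis) of each gene in each library, with colour for genotype and shape for sex. Gad1 lies above all other genes in every library, at 38.3 to 45.5, and Lhx6 has the lowest mean, at 2.98 to 3.83.

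None of the members changed between UTRmut and WT at an adjusted p under 0.05 (0 of 8; edgeR quasi-likelihood test, Benjamini-Hochberg adjusted p = 0.999 for each). Over all genes tested 0.00620% passed. At an unadjusted p under 0.05 there was 1 member, Gad1, against 2.71% of all genes, and DESeq2 likewise called 0 and had 1 at an unadjusted p under 0.05. Both UTRmut libraries lay on 1 side of both WT libraries for 2 of 8 members, Gad1 above and Kcnc1 below, against 28.6% of all genes tested (14.0% above and 14.6% below). The log2 fold was positive for 5 of 8 members and for 47.9% of all genes. The median log2 fold of the 8 was 0.05 and that of all genes -0.0097. In bulk tissue fewer cells of a type and less RNA per cell cannot be told apart.

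Pvalb, the gene that names the cells, varied little between libraries. It had 37.5 CPM in the UTRmut female and 37.1 in the UTRmut male, 32.1 and 35.1 in the het female and male, and 33.6 and 37.1 in the WT female and male. The UTRmut female lay above both WT libraries and the UTRmut male between them, so that these groups overlapped, while both UTRmut libraries lay above both het libraries. The fold of UTRmut over WT was 1.05 with a 95% interval of 0.888 to 1.25, and that of het over WT 0.951 (0.800 to 1.13). The log2 folds were 0.07 (SE 0.11) and -0.07 (SE 0.12). Without WT replicate 1 that of UTRmut against WT was 0.0053, and without WT replicate 2 it was 0.16. The SD of Pvalb over the 6 libraries on the log2 CPM scale was 0.09, and 30.8% of the 500 genes nearest to it in mean level had a smaller one. This share was higher for every other member, from 33.6% for Lhx6 to 88% for Gad2, 94% for Kcnc1 and 95.8% for Syt2.

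Among the enzymes of GABA synthesis, Gad1 was ordered by genotype and Gad2 was not. Gad1 had 347 and 345 CPM in the UTRmut female and male, 310 and 330 in the het female and male, and 292 and 304 in the WT female and male. No 2 genotypes overlapped. UTRmut against WT gave a log2 fold of 0.22 (SE 0.08), het against WT one of 0.10 (SE 0.08) and UTRmut against het one of 0.12 (SE 0.08). As a fold, UTRmut over WT was 1.16 (95% interval 1.03 to 1.31). Per mutant allele the log2 change was 0.11 (SE 0.04), with an unadjusted p of 0.0124 in edgeR and an adjusted p of 0.998 (Benjamini-Hochberg). Ordered by unadjusted p, Gad1 was gene 92 of 16119 per allele and gene 132 in UTRmut against WT (unadjusted p = 0.0192, edgeR). It was higher in UTRmut than in WT within females (0.25) and within males (0.19), on the log2 CPM scale. The fold of UTRmut over WT kept its sign in all 13 alternative settings, at 0.15 to 0.26, and its adjusted p over them was 0.303 to 0.9999 (edgeR or DESeq2, Benjamini-Hochberg).

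Genotype means rose in the order WT, het, UTRmut for 2 of 8 members, Gad1 and Slc32a1, against 17.4% of all genes, and fell in that order for 0 of 8, against 17.9%. No member passed in the change per mutant allele (0 of 8 in edgeR, with 1 at an unadjusted p under 0.05 against 3.12% of all genes, and 0 and 1 in DESeq2), nor did any of all genes tested (0%). The change per allele was positive for 5 of 8 members, against 47.8% of all genes.

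In Gad2 the differences of UTRmut and het from WT had opposite signs in the 2 sexes. It had 170 and 146 CPM in the UTRmut female and male, 156 and 135 in the het female and male, and 132 and 159 in the WT female and male. The female carried more than the male in UTRmut and het, and less in WT, so that the genotypes overlapped. UTRmut minus WT was 0.36 in females and -0.12 in males on the log2 CPM scale, and het minus WT was 0.23 and -0.23. The fitted log2 fold of UTRmut against WT was 0.12 (SE 0.11), and without WT replicate 1 it was -0.0087.

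Slc32a1, the vesicular GABA transporter, had the same pattern as Gad2. It had 37.1 and 33.2 CPM in the UTRmut female and male, 35.1 and 33.1 in the het female and male, and 30.0 and 36.1 in the WT female and male. The lowest library was the WT female and the next to highest the WT male. UTRmut minus WT was 0.30 in females and -0.12 in males. Over both sexes, UTRmut against WT gave a log2 fold of 0.09 (SE 0.13) and het against WT one of 0.04 (SE 0.13). Without WT replicate 1 these were -0.040 and -0.084. Slc32a1 lies 6.33 Mb from Mmp9 on chromosome 2. Gad1, Gad2 and Lhx6 are on the same chromosome at 94.34, 142.25 and 128.84 Mb from Mmp9.

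**Figure D2:**
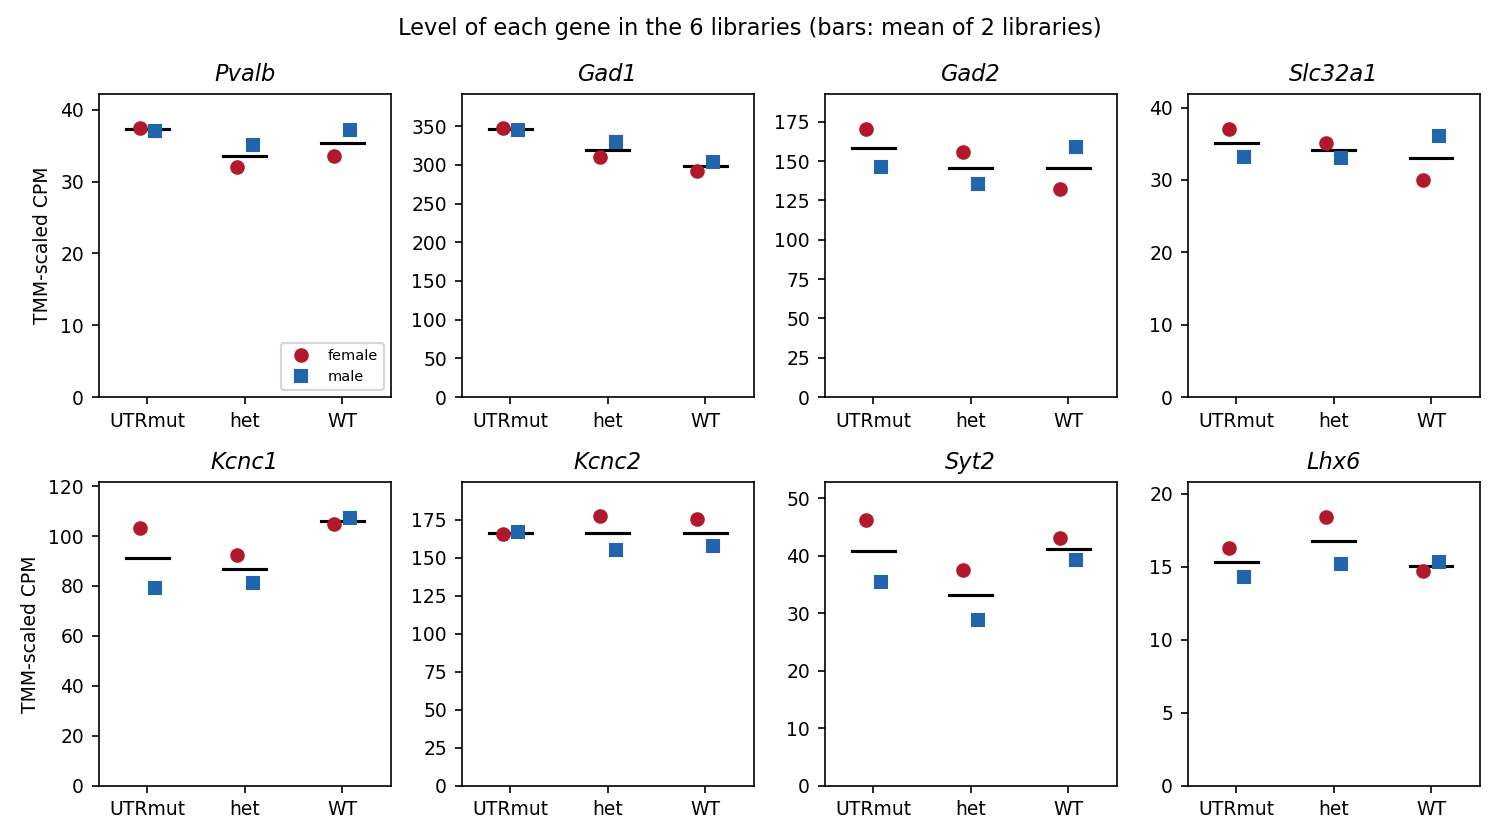
TMM-scaled CPM of each gene in the 6 libraries (circles, females; squares, males; bars, mean of the 2 libraries of a genotype). Gad1 steps down through UTRmut, het and WT (346, 320 and 298 CPM on average). In Gad2, Slc32a1, Lhx6 and Kcnc1 the female lies above the male in UTRmut and het and below it in WT.

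Kcnc1 was lowest in the male carriers of the mutant allele. It had 103 and 79.4 CPM in the UTRmut female and male, 92.5 and 81.2 in the het female and male, and 105 and 107 in the WT female and male. All 4 carriers lay below both WT libraries, the UTRmut female by the smallest margin. In log2, UTRmut against WT gave -0.22 (SE 0.12) and het against WT -0.29 (SE 0.12), or folds of 0.860 (95% interval 0.719 to 1.03) and 0.819 (0.684 to 0.980). The unadjusted p of het against WT was 0.0319 and the adjusted p 0.9999 (edgeR, Benjamini-Hochberg). Within males UTRmut minus WT was -0.43 and het minus WT -0.40, and within females -0.024 and -0.18, on the log2 CPM scale. The fitted log2 fold of UTRmut against WT was -0.41 without UTRmut replicate 1 and -0.038 without UTRmut replicate 2.

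Its paralog Kcnc2 showed almost identical genotype means. It had 166 and 167 CPM in the UTRmut female and male, 177 and 155 in the het female and male, and 175 and 158 in the WT female and male. The means were 166 ± 0.674 in UTRmut, 166 ± 15.7 in het and 166 ± 12.6 in WT (SD, n = 2 each). The fold of UTRmut over WT was 0.999 with a 95% interval of 0.866 to 1.15. Within a library, there were 1.61 and 2.10 Kcnc2 counts per Kcnc1 count in the UTRmut female and male, 1.92 and 1.91 in the het female and male, and 1.67 and 1.47 in the WT female and male. This ratio, which no scaling enters, was lower in the UTRmut female than in the WT female, and higher in the other 3 carriers than in either WT library.

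Syt2 had its lowest mean in het. It had 46.3 and 35.4 CPM in the UTRmut female and male, 37.5 and 28.9 in the het female and male, and 43.1 and 39.3 in the WT female and male. Both het libraries lay below both WT libraries, while the UTRmut female was the highest and the UTRmut male between the hets. Het against WT gave a log2 fold of -0.31 (SE 0.16), UTRmut against het 0.30 (SE 0.15) and UTRmut against WT -0.012 (SE 0.15), and none of these passed. Without het replicate 2 the log2 fold of het against WT was -0.14, and without het replicate 1 it was -0.51. The Syt2 gene overlaps Ppp1r12b on the opposite strand, with 0 shared exonic bases. Ppp1r12b had 1669 to 2272 counts, and whether the counting used strand is not given in the sources used here.

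Lhx6 was the least abundant member. It had 16.3 and 14.3 CPM in the UTRmut female and male, 18.4 and 15.2 in the het female and male, and 14.7 and 15.3 in the WT female and male. All 3 genotypes overlapped. As in Gad2, the female lay above the male in UTRmut and het and below it in WT. UTRmut minus WT was 0.15 in females and -0.097 in males on the log2 CPM scale, and het minus WT was 0.32 and -0.014. UTRmut against WT gave a log2 fold of 0.03 (SE 0.16) and het against WT 0.16 (SE 0.16). Counts of 153 to 178 per library lay behind these values, and the 95% interval of the fold of UTRmut over WT was 0.802 to 1.29.

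In het against WT 0 of 8 members passed, against 0.0124% of all genes, and 1 had an unadjusted p under 0.05 (Kcnc1, against 2.37%) in edgeR. DESeq2 gave 0 and 1. The groups did not overlap for 3 of 8 members (Gad1 above, Kcnc1 and Syt2 below), against 27.1% of all genes (13.4% above and 13.6% below). The log2 fold was positive for 3 of 8, against 48.9%. The median log2 fold of the 8 was -0.0033 and that of all genes -0.0038. In UTRmut against het 0 of 8 passed, against 0.0124%, and 0 had an unadjusted p under 0.05, against 2.80%, with the same counts in DESeq2. The groups did not overlap for 2 of 8 (Pvalb and Gad1, both above), against 34.3% (16.4% above and 17.9% below). The log2 fold was positive for 7 of 8, against 49.7%. The median log2 fold of the 8 was 0.094 and that of all genes -0.0010. Of 19 genes of GABA receptors and the inhibitory postsynapse 15 were higher in UTRmut (median 0.089), and of 8 excitatory neuron genes 6 (0.095). Of 12 genes of GABA uptake, breakdown and precursor supply 5 were higher (median -0.012). These comparisons share libraries and are not independent of each other.

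**Figure D3:**
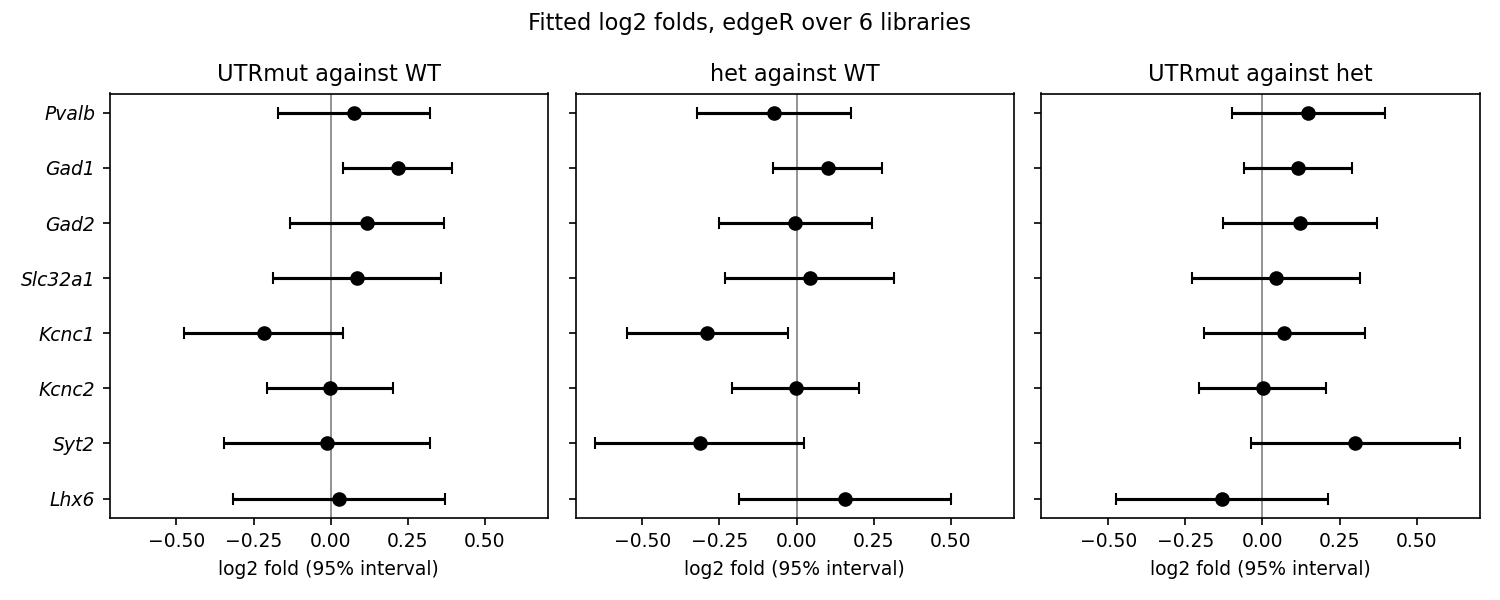
Fitted log2 folds with 95% intervals of the 8 genes in the 3 comparisons of genotypes (edgeR, 6 libraries). The interval leaves out 0 for Gad1 in UTRmut against WT (0.04 to 0.39) and for Kcnc1 in het against WT (-0.55 to -0.029), before adjustment over all genes.

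Ratios between members within a library do not depend on the scaling, but do not show which of the 2 genes differed. Slc32a1 and Gad2 kept nearly the same proportion, with 0.218 and 0.227 Slc32a1 counts per Gad2 count in the UTRmut female and male, 0.225 and 0.245 in the het female and male, and 0.227 and 0.227 in the WT female and male. Pvalb relative to Gad1 was 0.108 and 0.107 in the UTRmut female and male, 0.104 and 0.107 in the het female and male, and 0.115 and 0.122 in the WT female and male. This ratio was lower in all 4 carriers than in either WT library. Mean Gad1 was 346 CPM in UTRmut, 320 in het and 298 in WT, and mean Pvalb was 37.3, 33.6 and 35.4. Carriers and WT overlapped in the ratio of Pvalb to Lhx6, with 2.30 and 2.59 in the UTRmut female and male, 1.75 and 2.31 in the het female and male, and 2.28 and 2.42 in the WT female and male. They also overlapped in Slc32a1 per Gad1 count and in Gad1 per Gad2 count. The ratios were chosen with the members' values known and were not tested, and other gene pairs were not counted for comparison.

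Sex and replicate number are the same split in this design, and differences between female and male libraries cannot be told apart from other differences between the replicates. With genotype in the model, Syt2 was higher in females, at 42.3 ± 4.46 CPM against 34.5 ± 5.26 in males (SD, n = 3 each). The log2 difference was 0.30 (SE 0.09), with the same sign in UTRmut (0.38), het (0.37) and WT (0.13). It had an unadjusted p of 0.00799 and an adjusted p of 0.614 (edgeR, Benjamini-Hochberg). It passed without WT replicate 1 (adjusted p = 0.0330) and without WT replicate 2 (0.0366), fits in which 198 and 182 of all genes passed, against 6 with all libraries. Its adjusted p over 11 alternatives was 0.0330 to 0.99997 (edgeR or DESeq2, Benjamini-Hochberg). Kcnc1 and Kcnc2 had log2 differences of 0.18 (SE 0.09) and 0.11 (SE 0.07), Lhx6 of 0.13 (SE 0.13), Gad2 of 0.05 (SE 0.10), Slc32a1 of -0.0055 (SE 0.10), Gad1 of -0.05 (SE 0.06) and Pvalb of -0.09 (SE 0.09). In all 0 of 8 passed, against 0.0372% of all genes, and 1 had an unadjusted p under 0.05 in edgeR, against 6.99%, and 0 in DESeq2 with 0 passing. The difference was positive for 5 of 8, against 49.6%.

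The change per mutant allele was then compared between females and males. It was larger, or less negative, in females for 7 of 8 members, with a median difference of 0.12 on the log2 scale. Over all genes the median was -0.0049, and 48.9% were positive. Medians of the lists of related genes described below were also positive, from 0.04 (GABA neuron transcription factors) to 0.24 (signals that act on parvalbumin cells). Of perineuronal net genes 9 of 11 were positive (median 0.13). Marker lists went both ways, with medians of 0.18 for astrocyte and -0.12 for oligodendrocyte genes. Gad2 had the smallest p of the members, with a difference of 0.24 per allele (SE 0.07), an unadjusted p of 0.00417 and an adjusted p of 0.125 (edgeR, Benjamini-Hochberg). It passed without a filter on low counts (adjusted p = 0.0388), without het replicate 2 (0.0272) and without UTRmut replicate 2 (0.0217), fits in which 600, 753 and 413 of all genes passed, against 194 with all libraries and the filter. Leaving out each library in turn gave differences of 0.08 (without WT replicate 2) to 0.42 (without UTRmut replicate 2), with adjusted p of 0.0217 to 0.983 (edgeR, Benjamini-Hochberg). Slc32a1 had 0.21 (SE 0.10, unadjusted p = 0.0498, edgeR) and Kcnc1 0.21 (SE 0.09, unadjusted p = 0.0282, edgeR). The other differences were 0.13 (SE 0.14) for Syt2, 0.12 (SE 0.14) for Lhx6, 0.08 (SE 0.10) for Pvalb, 0.03 (SE 0.06) for Gad1 and -0.08 (SE 0.07) for Kcnc2. None of the 8 passed (0 in edgeR and 0 in DESeq2), against 1.20% of all genes, and 3 in edgeR and 1 in DESeq2 had an unadjusted p under 0.05, against 13.6%. Each combination of genotype and sex holds 1 library, and this fit has 2 residual degrees of freedom. The WT female library was the lowest of the 6 for Gad1, Gad2 and Slc32a1.

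**Figure D4:**
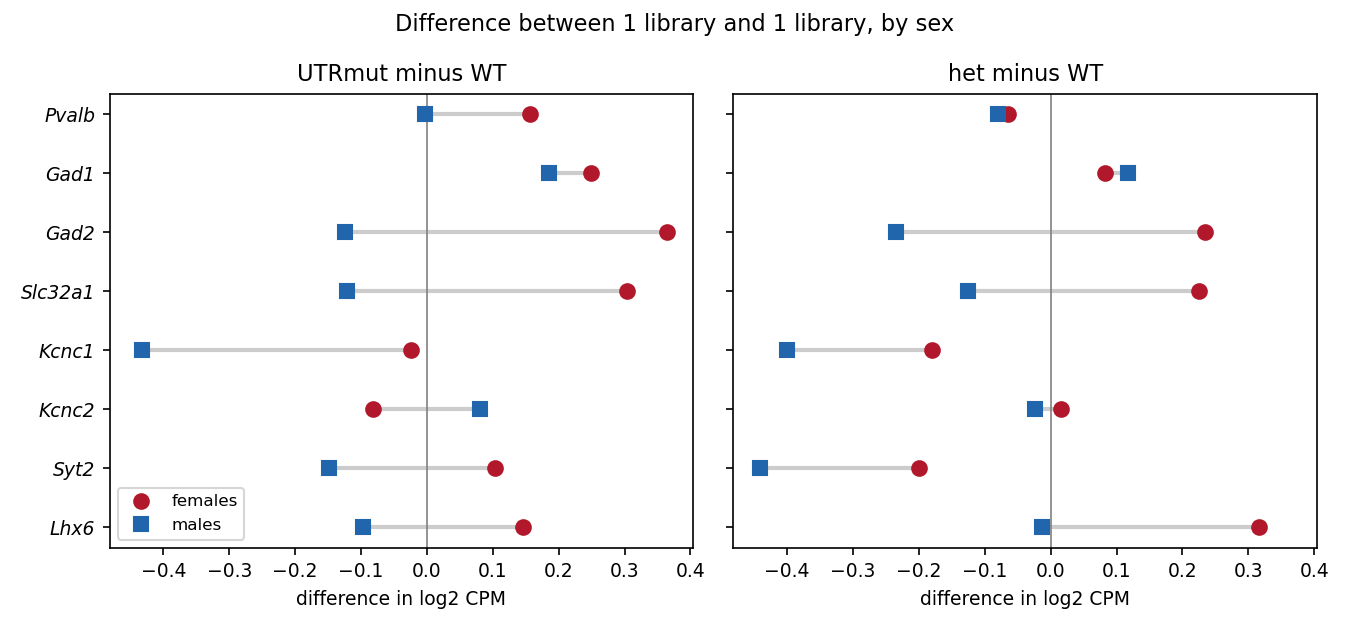
Differences in log2 CPM between single libraries of the same sex (circles, females; squares, males), UTRmut minus WT at left and het minus WT at right. Gad2, Slc32a1 and Lhx6 are positive in females and negative in males in both panels. Gad1 is positive in all 4 differences (0.08 to 0.25), and Kcnc1 is negative in all 4.

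Genes around the members were read from lists chosen for their function. Of 17 other genes known to be high in fast-spiking cells, 9 were higher and 8 lower in UTRmut than in WT, with a median log2 fold of 0.0040, and 0 passed (0 also at an unadjusted p under 0.05, edgeR). The smallest p were those of Tac1, the precursor of substance P (-0.42, SE 0.20), Scn1a, a sodium channel of fast-spiking axons (0.13, SE 0.10), and Cox6a2, a subunit of cytochrome oxidase (-0.37, SE 0.32). In het against WT 7 were higher and 10 lower, with Kcna2 at -0.12 (SE 0.09) and Scn8a at -0.11 (SE 0.08), and 0 passed. Of 14 tested transcription factors of GABA neurons 10 were higher and 4 lower in UTRmut, with a median of 0.07 and 0 passing. Dlx2 was at -0.75 (SE 0.43), Maf at 0.24 (SE 0.14) and Npas1 at 0.42 (SE 0.26). In het 8 were higher and 6 lower, with Maf at 0.30 (SE 0.14) and Npas3 at -0.20 (SE 0.16). Nkx2-1, the regulator upstream of Lhx6 in the embryo, had 0 counts in 5 libraries and 2 in the WT male.

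Genes of the other interneuron classes did not pass in either genotype. Of 17, among them Sst, Vip, Npy and Reln, 13 had a positive and 4 a negative log2 fold in UTRmut against WT (47.9% of all genes were positive), with a median of 0.06. None passed (0 also at an unadjusted p under 0.05, edgeR). Lamp5 was at 0.22 (SE 0.11), Crhbp, a binding protein of corticotropin-releasing hormone, at 0.29 (SE 0.15) and the neuropeptide gene Npy at 0.22 (SE 0.11). Without WT replicate 1 Lamp5 was at 0.089 and Npy at 0.11, and without UTRmut replicate 2 Crhbp was at 0.14. In het 11 were higher and 6 lower, with Crhbp at 0.28 (SE 0.15) and Calb1 at -0.24 (SE 0.15). The summed level of this list was 1221 and 1212 CPM in the UTRmut female and male, 1164 and 1191 in the het female and male, and 1081 and 1249 in the WT female and male. The WT male was thus the highest and the WT female the lowest library.

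On the receiving and clearing side of GABA transmission, 0 genes passed as well. Of 12 genes of GABA uptake, breakdown and precursor supply, 8 were higher and 4 lower in UTRmut than in WT (median log2 fold 0.02). The glutamine transporter Slc38a5 was at -0.87 (SE 0.48) and Glul, the glutamine synthetase of astrocytes, at 0.12 (SE 0.08). In het 7 were higher and 5 lower, with Slc38a2 at 0.19 (SE 0.11) and Glul at 0.13 (SE 0.08). Of 19 genes of GABA receptors and the inhibitory postsynapse, 13 were higher and 6 lower in UTRmut (median 0.04), and 7 higher and 12 lower in het (median -0.04). The receptor subunit Gabrg3 was at -0.25 (SE 0.10) in UTRmut and -0.24 (SE 0.10) in het, the 1 gene of the list with an unadjusted p under 0.05 in either comparison (edgeR). Gabrg1 was at 0.22 (SE 0.13) in UTRmut, and Nlgn2, the adhesion protein of inhibitory synapses, at -0.24 (SE 0.12) in het.

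Of 11 tested perineuronal net genes, 4 were higher and 7 lower in UTRmut than in WT (median log2 fold -0.10), with the same counts in het (median -0.02), and 0 passed. Acan, which encodes the aggrecan core protein of the nets around parvalbumin cells, had 8.39 and 8.25 CPM in the UTRmut female and male, 7.999 and 7.27 in the het female and male, and 3.95 and 7.67 in the WT female and male. The WT female was far below the other 5 libraries. The log2 fold of UTRmut against WT was 0.51 (SE 0.27), 0.12 without WT replicate 1 and 1.09 without WT replicate 2. For het against WT the value without WT replicate 1 was -0.0096. Tnc, the 1 net gene with an unadjusted p under 0.05 (edgeR), was at -0.51 (SE 0.20) and Tnr at -0.17 (SE 0.09) in UTRmut, and Bcan at 0.16 (SE 0.10) and Acan at 0.38 (SE 0.28) in het. Of 8 tested genes of signals that act on parvalbumin cells, 6 were higher and 2 lower in UTRmut (median 0.08) and 5 higher and 3 lower in het (median 0.09), with 0 passing. Nptx2, a secreted pentraxin of excitatory synapses onto these cells, was at 0.52 (SE 0.32), or 0.19 without WT replicate 1 and 0.97 without WT replicate 2. Its level was 53.1 CPM in the WT female, below the 80.2 to 114 CPM of the other libraries. In UTRmut the neuregulin genes Nrg1 and Nrg3 were at -0.22 (SE 0.14) and -0.12 (SE 0.09). In het Nrg1 was at -0.22 (SE 0.15) and Nptxr at -0.21 (SE 0.14). Without WT replicate 1 Nrg1 was at -0.020 in UTRmut and -0.021 in het, and without WT replicate 2 Nptxr was at -0.035 in het.

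Markers of other cells and of neighbouring tissue are given as counts in UTRmut against WT, in each case with 0 passing. The thalamic list shares Slc17a6 with the excitatory list and Calb2 with the other interneuron list, and its median is the value of Calb2. Of 8 excitatory neuron genes 3 were higher (median log2 fold -0.09), of 5 tested thalamic genes 3 (0.06), of 5 tested striatal genes 3 (0.08), of 4 tested hippocampal genes 3 (0.15, with C1ql2 at -1.19 and an unadjusted p of 0.00239 in edgeR), and of 3 tested muscle genes 2 (0.31). Of 5 astrocyte genes 3 were higher (0.0047), of 5 oligodendrocyte genes 0 (-0.10), of 5 microglial genes 4 (0.04), of 4 endothelial genes 0 (-0.29) and of 4 tested blood genes 0 (-0.90, all 4 at an unadjusted p under 0.05 in edgeR). The 5 blood genes summed to 149 and 96.6 CPM in the UTRmut female and male, 168 and 175 in the het female and male, and 179 and 231 in the WT female and male. Their part in the members' values was not tested.

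Profiles most like that of Pvalb over the 6 libraries were those of Trim37, Dnal1, Gucy1b1, Bend6 and Gdpd1, with root mean square differences of 0.011 to 0.018 in centred log2 CPM, among 13329 protein-coding genes compared. Nearest to Gad1 were Ngef, Dek, Ube2b, Ppp1r2 and Strap (0.016 to 0.025). The median over all genes compared was 0.14 from Pvalb and 0.15 from Gad1. Of the other members, Gad1 was nearest to Pvalb, at 0.08 (rank 1891), and Syt2 farthest, at 0.22 (rank 10059). Syt2, Kcnc1 (0.19) and Lhx6 (0.18) were farther from Pvalb than the median gene, and the other members were nearer. With 6 libraries, likeness of this kind is a description of these libraries.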

How the data were processed

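Reads were counted per Ensembl gene by the authors, and the deposited values are raw counts with 1 column per library. The submitters' processing notes name HISAT2, HTSeq 0.6.0, Trimmomatic 0.39, GATK 4.2.3.0 and the GRCm38 build. What each was used for, the annotation release and the strand setting are not stated in these notes. Libraries were made with TruSeq Stranded Total RNA, per the labels' protocols, and total RNA also holds unspliced transcripts. Symbols, positions and exon lengths came from GENCODE M21 (GRCm38), matching 55227 of 55487 identifiers.

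Genes were kept with filterByExpr (minimum count 10, minimum total 15), scaled with TMM factors and tested in edgeR 4.0.16 under R 4.3.3 (robust quasi-likelihood F test, Benjamini-Hochberg adjustment over 16119 genes, threshold 0.05), with all 6 libraries in each fit. SE is the absolute log2 fold over the square root of F, and 95% intervals use the t distribution with edgeR's total degrees of freedom. Log2 CPM used a prior count of 2. The fit was tested on simulated counts. Alternatives were DESeq2 1.42.0, other scalings, protein-coding genes only, no filter, a sex block, pairs of genotypes and leaving out each library.

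Members, lists and ratios were chosen with earlier results of these data known. From each functional list the 3 genes with the smallest p in UTRmut against WT and the 2 in het against WT were named, except that some are not reported here. Marker lists are given by counts. Likeness was ranked by root mean square difference. Vamp1, Hapln4, Nkx2-1, Slc17a7, Slc17a6, Calb2, Acta1, C1ql2 and the markers at 0 were named after their values were seen.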

Additional observations from a re-analysis of the deposited data

Results flagged for a closer look

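In the test of a difference between females and males in the change per mutant allele, 0 of the 8 members passed, against 1.20% of all genes. Of the 7 lists of related genes, 1 fast-spiking gene (Vamp1) and 1 perineuronal net gene (Hapln4) passed. Of the marker lists, 1 excitatory neuron, 1 striatal, 1 astrocyte and 2 blood genes passed. Hapln4, a link protein of perineuronal nets, had 35.3 and 27.5 CPM in the UTRmut female and male, 30.4 and 27.6 in the het female and male, and 26.2 and 40.8 in the WT female and male. The change per allele differed by 0.50 (SE 0.11) on the log2 scale, female minus male (edgeR, Benjamini-Hochberg adjusted p = 0.0358). The call was lost with DESeq2 (0.248) and without WT replicate 1 (0.435), UTRmut replicate 1 (0.418) or WT replicate 2 (0.910), and without WT replicate 2 the difference was 0.22 (Benjamini-Hochberg adjusted p over 11 alternatives in edgeR or DESeq2, 0.000532 to 0.910). Vamp1, a vesicle protein of fast-spiking terminals, had 62.4 and 78.8 CPM in the UTRmut female and male, 69.2 and 73.1 in the het female and male, and 78.1 and 62.2 in the WT female and male. Its difference was -0.33 (SE 0.08; edgeR, Benjamini-Hochberg adjusted p = 0.0485). That call was lost with DESeq2 (0.287) and without either WT or either UTRmut library (0.130 to 0.716).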

How the results depend on the processing

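In all 6 comparisons 0 of 8 members passed in the edgeR fit of 6 libraries, and the same held under every alternative other than these. Between females and males, 1 member (Syt2) passed without WT replicate 1 and 1 without WT replicate 2 (0 to 1 over the fits without 1 library). In the sex difference in the change per allele, 1 member (Gad2) passed with no filter on low counts, and 0 to 1 without 1 library (1 without het replicate 2 and 1 without UTRmut replicate 2). By length, 4 members changed rank with the longest transcript. With 2 libraries a genotype, the 95% intervals of the members' folds set the limit. The causes of the changes of sign were not tested.

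Log2 folds of UTRmut against WT that changed sign were those of Kcnc2 (0.0034 with RLE factors, 0.0057 with no filter, 0.0035 with DESeq2, 0.00087 with the replicate block) and Lhx6 (-0.035 with total counts only). Others were Gad2 in het against WT (0.00026 with protein-coding genes), and, in UTRmut against het, Slc32a1 (-0.015 with total counts) and Kcnc2 (-0.058 with total counts, -0.0065 with protein-coding genes). Per allele they were Kcnc2 (0.0017 with RLE factors, 0.0029 with no filter, 0.0018 with DESeq2, 0.00043 with the replicate block) and Lhx6 (-0.018 with total counts), and between females and males Slc32a1 (0.022 with total counts, 0.011 with protein-coding genes).

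Without 1 library, UTRmut against WT ranged from 0.0053 to 0.16 for Pvalb, -0.0087 to 0.27 for Gad2, -0.040 to 0.24 for Slc32a1, -0.066 to 0.077 for Kcnc2, -0.21 to 0.17 for Syt2 and -0.066 to 0.12 for Lhx6. Het against WT ranged from -0.14 to 0.0071 for Pvalb, -0.13 to 0.14 for Gad2, -0.084 to 0.19 for Slc32a1, -0.10 to 0.090 for Kcnc2 and -0.0096 to 0.95 for Acan. UTRmut against het ranged from -0.037 to 0.12 for Slc32a1, -0.13 to 0.25 for Kcnc1, -0.087 to 0.10 for Kcnc2 and -0.26 to 0.012 for Lhx6. The change per allele ranged from -0.011 to 0.11 for Slc32a1, -0.027 to 0.033 for Kcnc2, -0.13 to 0.063 for Syt2 and -0.019 to 0.074 for Lhx6. Females against males ranged from -0.036 to 0.21 for Gad2 and -0.095 to 0.12 for Slc32a1. The sex difference per allele ranged from -0.062 to 0.23 for Pvalb, -0.0079 to 0.075 for Gad1, -0.24 to 0.50 for Syt2 and -0.12 to 0.37 for Lhx6. Of the related genes, Glul ranged from 0.019 to 0.24 and Tnc from -0.73 to -0.22 in UTRmut against WT, and Calb1 from -0.41 to -0.081 and Slc38a2 from 0.053 to 0.32 in het against WT.

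Over all genes, UTRmut against WT had 1 call, 0 with protein-coding genes, 27 with no filter, 8 with DESeq2, 4 with the replicate block, 3 with these genotypes alone and 2 to 124 without 1 library (124 without WT replicate 2). Het against WT had 2 calls, 0 with protein-coding genes, 13 with no filter, 1 with these genotypes alone and 1 to 41 without 1 library. UTRmut against het had 2, and 0, 28, 7 (DESeq2), 4 (block), 10 (these genotypes alone) and 0 to 12 in the same settings. The change per allele had 0, 19 with no filter, 4 with DESeq2 and 0 to 45 without 1 library. Females against males had 6, 92 with no filter, 10 with DESeq2 and 7 to 198 without 1 library. The sex difference had 194, 600 with no filter, 77 with DESeq2 and 15 to 753 without 1 library. Same-numbered libraries deviated together with correlations of 0.29 (WT and het), 0.08 (WT and UTRmut) and 0.20 (het and UTRmut), and the numbers were not taken as pairs. The block changed the call of 0 members.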
